A study of Mus musculus with 4 samples.

Results

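Microtubules are hollow polymers of heterodimers that each hold an α-tubulin and a β-tubulin. Mammals carry several genes for each subunit, the isotypes, which differ mainly in the acidic tail that follows the folded part of the protein and in the tissues that express them. In the embryonic brain, *Tuba1a*, *Tubb2b* and *Tubb3* are known for their roles in neuron migration and axon growth, *Tuba1b*, *Tuba1c* and *Tubb5* are the isotypes of dividing cells, and *Tuba8* is an α-tubulin best known from muscle and testis. The expression of 10 of these genes was examined in mouse neural stem/progenitor cells (NSPCs), 5 α-tubulins (*Tuba1a*, *Tuba1b*, *Tuba1c*, *Tuba4a* and *Tuba8*) and 5 β-tubulins (*Tubb2a*, *Tubb2b*, *Tubb3*, *Tubb5* and *Tubb6*). They were found on the arrays by the gene name of the probe, which gave 14 probes of the 55681 on the array, and 10 of the 19675 genes measured. The family was chosen by the log2 ratio of *Tuba8* with PJ34 in *Trp53*-/- cells, which was already known to be among the lowest of all genes. Its values in that comparison, and those of the other 9 genes there, are therefore given as a description without a test.

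The cells came from embryos of embryonic day 13.5 and were grown with epidermal and fibroblast growth factors. They were either wild-type or *Trp53*-/-, which lack the tumour suppressor p53 and were bred from heterozygous mice. The labels give the strain as Slc:ICR for both genotypes; the strain on which the heterozygous mice were kept was not given in the sources used here, so a strain difference was not tested. PJ34, an inhibitor of poly(ADP-ribose) polymerases, was given at 20 μM; the time of exposure for the arrays was not given in the sources used here. On each array the RNA of PJ34-treated cells carried the dye Cy5 and that of untreated cells of the same genotype Cy3, and each genotype was measured on 2 arrays from independently prepared RNA (n = 2), with no dye swap, so within a genotype a dye bias and the effect of PJ34 cannot be told apart. A channel detected 21506 to 27157 probes (well above background), and no probe was saturated in most of its spots. All 10 genes were well above background in both channels of the 4 arrays. Neural stem/progenitor markers were found for 10 of 10 listed genes in both channels of all arrays. The mRNA of *Trp53* was 1.63-fold lower in untreated *Trp53*-/- cells than in wild-type (q = 0.0565 in limma), and whether its probe lies in the deleted part was not given in the sources used here, so it does not check the labels. On the array of *Trp53*-/- replicate 2, the log2 ratio of PJ34 over untreated was 4.22 for the Y-linked *Eif2s3y* and -3.08 for *Xist*, the RNA that coats the inactive X chromosome, against -0.20 and 0.56 in *Trp53*-/- replicate 1. The treated and untreated cells of replicate 2 therefore differed in sex-linked transcripts, and values of *Trp53*-/- cells are also given for replicate 1 alone. In untreated cells, *Eif2s3y* was detected on both wild-type arrays and on neither of the *Trp53*-/- arrays. Sex and genotype therefore cannot be told apart in the comparison of untreated cells.

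The probe for *Tuba8* was read first, because the family was chosen for it. It lies on chromosome 6 at chr6:121176046-121176105 of mm9, at the end of the coding sequence, and is shown with the stop codon in capitals, which follows 16 codons and is followed by 8 bases.
Tuba8 probe: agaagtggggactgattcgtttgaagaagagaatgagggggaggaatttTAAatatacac
The 60 bases thus read the gene's own tail, the stretch in which tubulin isotypes differ most. How far a probe also captured the RNA of a related tubulin gene was not tested.

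In wild-type NSPCs, tubulin mRNA was lower with PJ34 for most of the 10 genes, by less than 2-fold. The log2 ratio of PJ34 over untreated was below 0 on both arrays for 8 of 10 genes, where 30.8% of all genes were. With limma and Storey's q, 7 of 10 fell at q below 0.05, against 11.4% of all genes that were lower by that rule, and none rose (13.7% of all genes did). The criteria of the study's methods also ask for more than 2-fold, and 0 of the 10 genes met them (0.213% of all genes were called lower and 0.29% higher), while 7 had an unadjusted p below 0.05. The direction depends on the scaling: with median centring in place of the loess curve, the median of all genes moved from 0.03 to 0.46, 1 of the 10 genes was below 0 and 8 of 10 were below that median.

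Among the α-tubulins, *Tuba1c* gave -0.57 and -0.93 in wild-type replicates 1 and 2 as log2 ratios, a mean decrease of 1.69-fold (q = 0.00373 in limma). *Tuba1a*, the main α-tubulin of young neurons, had -0.43 and -0.52, a decrease of 1.39-fold (q = 0.00270). *Tuba1b* had -0.30 and -0.62 (q = 0.00753). These 3 genes were lower on both arrays. *Tuba4a*, an α-tubulin whose tail lacks the final tyrosine that enzymes remove from other isotypes, had -0.27 and -0.74 (q = 0.00725). *Tuba8* had 0.45 and -0.15, so its replicates lay on either side of 0, and its mean of 0.15 ± 0.42 (SD, n = 2) did not pass the test (q = 0.280). Without wild-type replicate 2, the q of *Tuba1b* was 0.118 and that of *Tuba4a* 0.155, and *Tuba8* alone passed as higher with q = 0.0398.

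Among the β-tubulins, *Tubb5*, a major isotype of proliferating cells, gave log2 ratios of -0.45 and -0.89, a decrease of 1.59-fold (q = 0.00154 in limma). *Tubb6* had -0.19 and -0.63 and fell by 1.33-fold (q = 0.0158), and *Tubb2a* had -0.27 and -0.30 and fell by 1.22-fold (q = 0.0264). *Tubb2b* had -0.14 and -0.11 (q = 0.190), the smallest spread of the β-tubulins together with *Tubb2a*. *Tubb3*, the isotype used as a marker of neurons, had 0.05 and -0.25, on either side of 0 (q = 0.334). Without wild-type replicate 2, the q of *Tubb6* was 0.268 and *Tubb2a* missed the threshold without either wild-type array, with 0.124 without replicate 1. For *Tuba1a*, *Tuba1c* and *Tubb5*, q stayed below 0.05 without either wild-type array.

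**Figure D1:**
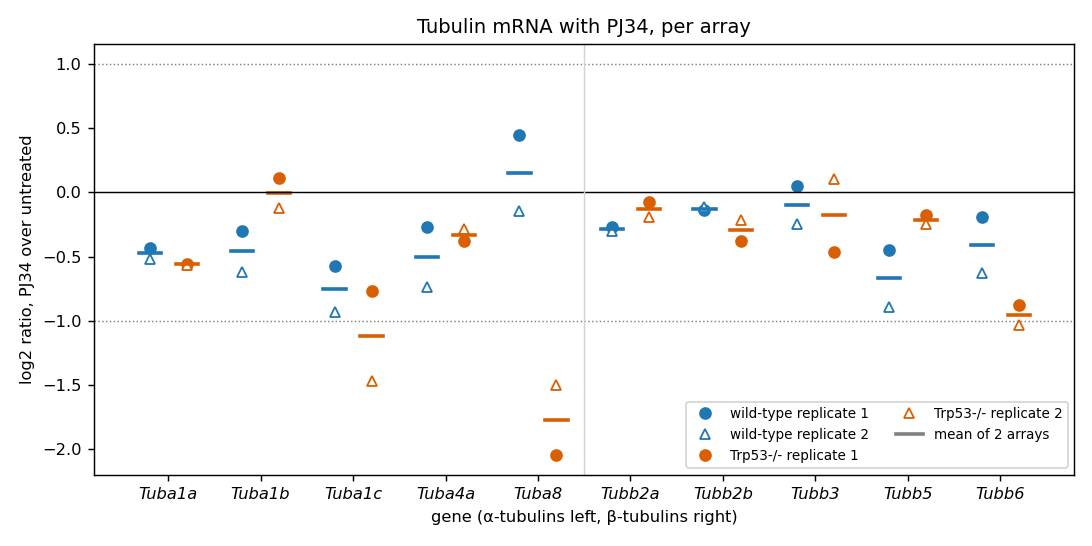
Log2 ratio of PJ34 over untreated cells for the 10 tubulin genes (y axis, dotted lines at 2-fold) on each of the 4 arrays; circles are replicate 1, triangles replicate 2 and bars the mean of 2 arrays, after loess normalization. *Tuba8* lies at 0.45 and -0.15 in wild-type and at -2.04 and -1.50 in *Trp53*-/- cells; under median centring the ratios of all 10 genes move up and 9 of 10 in wild-type and 8 of 10 in *Trp53*-/- cells lie above 0.

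In *Trp53*-/- NSPCs the tubulin gene with the lowest ratio was *Tuba8*, at -2.04 in replicate 1 and -1.50 in replicate 2, a mean of -1.77 ± 0.39 (SD, n = 2) or 3.41-fold lower with PJ34. Of all 19675 genes, 2 had a lower mean. *Tuba1c* had -0.77 and -1.46, a mean of -1.12 ± 0.49, and *Tubb6* had -0.88 and -1.03, a mean of -0.95 ± 0.11. *Tuba8* and *Tuba1c* thus lay beyond 2-fold and *Tubb6* lay just short of it. *Tuba8* and *Tuba1c* met the study's criteria, as did 0.28% of all genes in that direction; since this comparison led to the choice of the family, nothing is read from the count. In replicate 1 alone, the array without the shift in sex-linked transcripts, *Tuba8* had the larger decrease of the 2 arrays, while *Tuba1c* was at -0.77 and short of 2-fold.

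The other members moved less. *Tuba1a* had -0.55 and -0.57 in *Trp53*-/- cells and *Tuba4a* had -0.38 and -0.29. *Tubb2b* had -0.38 and -0.21, *Tubb5* -0.18 and -0.25, and *Tubb2a* -0.07 and -0.19. All of these were below 0 on both arrays, as were 8 of the 10 genes and 30.3% of all genes. *Tuba8* is among the 8, and nothing is read from this count, since this comparison led to the choice of the family. *Tuba1b* (0.11 and -0.12) and *Tubb3* (-0.46 and 0.10) lay on either side of 0. With median centring the median of all genes was 0.64 in this genotype; 5 of the 10 genes lay below it and 5 above, *Tuba8* by -1.90, *Tuba1c* by -0.81 and *Tubb6* by -0.49 relative to it.

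Set side by side, the response of *Tuba8* was 1.92 higher on the log2 scale in wild-type than in *Trp53*-/- cells. That value is a description only, since it holds the ratios that chose the gene. For *Tubb6* the difference was 0.54, from -0.19 and -0.63 in wild-type to -0.88 and -1.03. For *Tuba1b* and *Tubb5* it ran the other way, by -0.45 each, the decrease being larger in wild-type. The range over the 10 genes was -0.45 to 1.92 with a median of 0.08, where the median of all genes was -0.01. By the criteria of the study 1 of the 10, *Tuba8*, was higher in wild-type, as were 0.442% of all genes; nothing is read from this, since the same ratios chose the family.

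The untreated cells of the genotypes differed in tubulin levels too. Levels are normalized log2 signals of the Cy3 channel, which holds untreated cells on all 4 arrays, so the same dye is compared, and they can be set against each other within a probe and not between probes. The same channel is the denominator of the PJ34 ratios above, so an untreated level and a PJ34 ratio of a gene share a measurement. For *Tuba8* the untreated level was 6.56 and 6.78 in wild-type and 8.61 and 8.62 in *Trp53*-/- replicates 1 and 2. That is 3.86-fold higher in the *Trp53*-/- cells. No test is given, and nothing is read from the gap, since this channel entered the ratio that chose the gene. In the spots as scanned, its signal was 59.9 and 65.5 over a local background of 19 and 29 in wild-type, and 293 and 313 over 33 and 51 in *Trp53*-/- cells. *Tuba8* was thus a dim spot in wild-type, and its difference varied with the background correction and the scaling, from 1.72 to 2.44 on the log2 scale.

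With PJ34, the *Tuba8* levels of the genotypes overlapped, at 7.00 and 6.63 in wild-type and 6.57 and 7.13 in *Trp53*-/- cells, read in the Cy5 channel, a difference of the means of 0.03. Of the 4 conditions, the *Tuba8* level was highest in untreated *Trp53*-/- cells. That is a description only, since this channel entered the ratio that chose the gene, and untreated and treated cells carried different dyes. The *Tuba8* levels in the other 3 conditions lay between 6.56 and 7.13, where the spot was dim, so differences among these 3 are limited by the background. *Tubb6* and *Tubb2a* were higher in *Trp53*-/- cells in both states. *Tubb6* was 14.28 and 14.32 in untreated wild-type and 15.49 and 15.46 in untreated *Trp53*-/- cells, and with PJ34 14.08 and 13.70 against 14.61 and 14.43, so *Trp53*-/- cells were higher in both states. *Tubb2a* was 14.64 and 14.97 in untreated wild-type and 15.90 and 15.94 in untreated *Trp53*-/- cells. With PJ34 it was 14.37 and 14.67 against 15.83 and 15.75, a difference of 1.27, much as without.

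**Figure D2:**
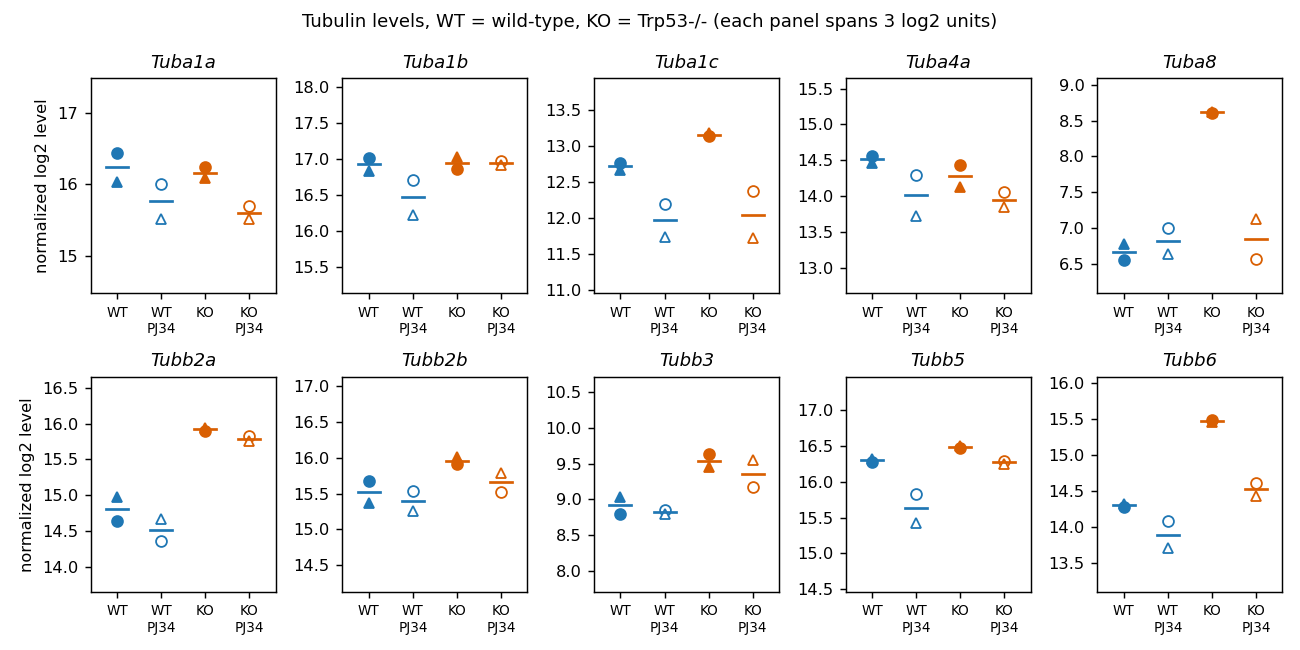
Normalized log2 level (y axis, 3 units in every panel) of each tubulin gene in untreated (filled) and PJ34-treated (open) wild-type (WT) and *Trp53*-/- (KO) cells; circles are replicate 1, triangles replicate 2, bars the mean of 2 arrays. *Tuba8* stands at 8.61 and 8.62 in untreated *Trp53*-/- cells and between 6.56 and 7.13 in the other 3 conditions, whereas *Tubb2a* is higher in *Trp53*-/- cells in both states; untreated and treated cells carried different dyes.

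In the test of untreated *Trp53*-/- against wild-type cells, *Tubb6* was 2.26-fold higher (log2 difference 1.17 with a standard error of 0.16, q = 0.0185 in limma) and *Tubb2a* 2.17-fold higher (1.12 ± 0.19, standard error, q = 0.0239). These were the 2 of the 9 tested members that met the criteria, where 1.9% of all genes were called higher and 1.96% lower. Genotype and sex cannot be told apart in this comparison. No other tested member passed q below 0.05, as 3.68% of all genes did in the higher and 3.64% in the lower direction. *Tubb3* had a level of 8.92 ± 0.17 in wild-type and 9.54 ± 0.13 in *Trp53*-/- cells (SD, n = 2), without overlap, a difference of 0.62 (q = 0.0691). *Tubb2b* had 15.68 and 15.37 against 15.91 and 16.01 (difference 0.44, q = 0.131), but its second probe ran the other way, with 13.86 and 13.31 against 13.28 and 13.06 (difference -0.42), so the direction of *Tubb2b* rests on the probe. *Tuba1c* had 12.77 and 12.67 against 13.14 and 13.18 (difference 0.44, q = 0.104), and its second probe differed by 0.50. *Tubb5* differed by 0.19 (q = 0.307).

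*Tuba1a* and *Tuba1b* differed by -0.07 and 0.02 and overlapped between the genotypes, and *Tuba4a* was lower by -0.23 (q = 0.288). In all, both *Trp53*-/- arrays lay above both wild-type arrays for 7 of the 10 genes and below them for 1, where 27.1% and 29% of all genes did so. *Tuba8* is among the 7, and nothing is read from this count, since that channel entered the ratio that chose the gene. *Tubb2b* counts among the 7 by its brighter probe and would count as lower by the other. When either *Trp53*-/- array was left out, which leaves that genotype with 1 array, no member met the criteria and neither did any of the 19675 genes, while without wild-type replicate 1 *Tubb2a* was short of 2-fold with a difference of 0.95. In the PJ34 channel, 5 of the 10 genes (*Tuba1b*, *Tubb2a*, *Tubb3*, *Tubb5* and *Tubb6*) were higher on both *Trp53*-/- arrays, where 27.8% of all genes were, 0 were lower and the other 5 overlapped.

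**Figure D3:**
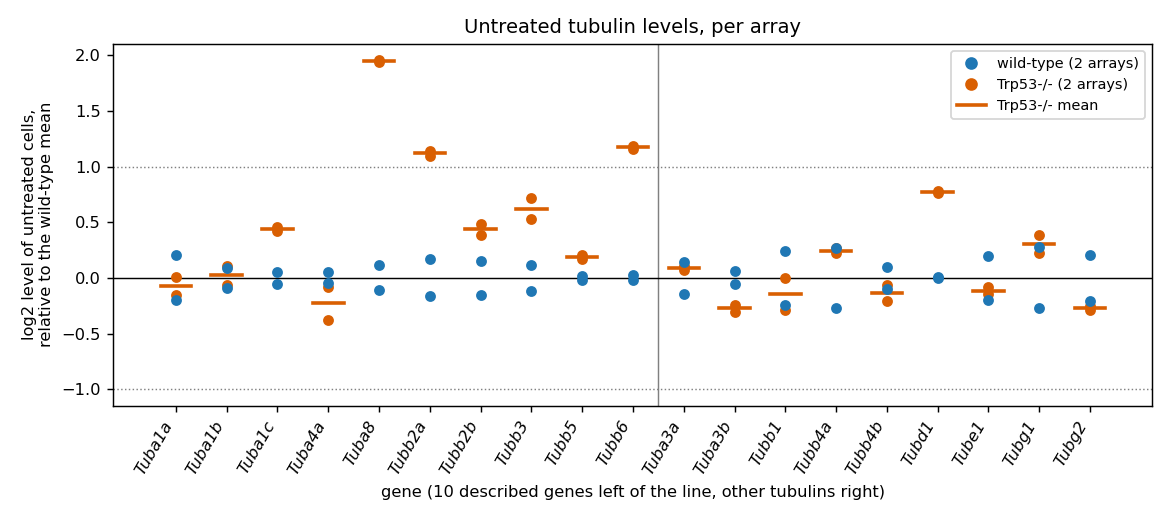
Untreated log2 level of the 10 tubulin genes and of 9 further tubulin genes on each array, set relative to the mean of the 2 wild-type arrays (y axis, dotted lines at 2-fold). *Trp53*-/- arrays (orange) lie near 1.95 for *Tuba8*, 1.17 for *Tubb6*, 1.12 for *Tubb2a* and 0.77 for *Tubd1*, with *Tubb3* at 0.62 in the mean and *Tuba1a* and *Tuba1b* at -0.07 and 0.02.

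Markers of other cell types differed in the same comparison, in both directions. Of 7 listed astrocyte markers, 2 were called higher in untreated *Trp53*-/- cells. These were *S100b*, a calcium-binding protein of astrocytes, with a log2 difference of 1.89, and *Gfap*, the intermediate filament of astrocytes, with 2.38; *Gfap* was not well above background in wild-type replicate 1, and its difference was 1.56 to 2.83 over the other settings. Of 9 oligodendrocyte lineage markers, 2 were called higher, among them *Mbp*, a protein of the myelin sheath, with 1.98 (1.10 to 2.42 over the other settings). Of 12 neuron markers, 2 were called higher and none lower at 2-fold, while at q below 0.05 3 were higher and 2 lower, the synaptic vesicle protein *Syp* by -0.80 (q = 0.0478 in limma) and the synaptic *Snap25* by -0.73 (q = 0.0467); *Tubb3* is itself on this list. The endothelial receptor *Kdr* was called lower, by -1.34 (q = 0.0153; -1.35 to -0.50 over the other settings). The summed signal of the neuron markers was 16690 to 22930 in untreated wild-type and 24010 to 29000 in untreated *Trp53*-/- cells. That rise in the sum lay in *Gap43*, a protein of growing axons. Without it the other 11 markers summed to 12840 and 10360 in wild-type and to 9117 and 9335 in *Trp53*-/- cells. Taken gene by gene, 8 of the 12 neuron markers were higher in untreated *Trp53*-/- cells and 4 lower. Their median log2 difference was 0.54, against -0.005 over all genes. The sum of astrocyte markers was 10850 to 11080 in wild-type and 12170 to 14120 in *Trp53*-/- cells, and that of oligodendrocyte lineage markers 41630 to 43600 and 45700 to 52460. The 2 endothelial markers measured summed to 7980 to 8403 in wild-type and to 3098 to 3479 in *Trp53*-/- cells. Nearly all of that sum was *Kdr*, since *Pecam1* was not well above background in the untreated cells of any array. The 1 microglial marker measured was at 1230 to 1577 in wild-type and at 702 to 889 in *Trp53*-/- cells. The 10 neural stem/progenitor markers summed to 127100 to 164000 in wild-type and to 133100 on both *Trp53*-/- arrays. Each sum adds signals across probes and is led by the brightest, such as *Slc1a3* for astrocytes, *Olig1* for the oligodendrocyte lineage and *Fabp7* here. It therefore does not tell how many markers rose or fell. In these bulk samples fewer cells of a type and less RNA per cell cannot be told apart, and the part of the cell make-up in the tubulin levels was not tested. The part of sex in the untreated levels cannot be told apart from that of genotype. Of 9 markers of striated muscle, a tissue that uses *Tuba8*, 6 had no probe above the filter (*Myh3*, *Actc1*, *Tnnt2*, *Des*, *Myog* and *Myod1*). The 3 others summed to 2767 and 3012 in untreated wild-type and to 1656 and 1725 in untreated *Trp53*-/- cells. Most of that sum was *Myh7*, at 11.29 and 11.37 in wild-type and 10.51 and 10.56 in *Trp53*-/- cells. *Tnni2* differed by 0.002, and *Acta1* was not well above background in *Trp53*-/- cells. With PJ34 the same 3 markers summed to 1284 to 1487 in wild-type and to 607 to 849 in *Trp53*-/- cells, so they were lower with PJ34 in both genotypes. Of the oligodendrocyte lineage markers, 6 of 9 fell with PJ34 at q below 0.05 in *Trp53*-/- cells and 3 of 9 in wild-type, where 10.6% and 11.4% of all genes did. Whether these changes have a part in the *Tuba8* ratio was not tested.

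Where a gene had 2 probes, their PJ34 ratios were compared too. The 2 probes of *Tuba1c* share 42 bases and the 2 of *Tubb2b* 29, so these pairs are not independent. The second probes had means of -0.68 and -0.17 in wild-type and of -1.06 and -0.32 in *Trp53*-/- cells, close to the -0.75 and -0.13, and the -1.12 and -0.30, of the probes used. The second probe of *Tuba1a*, which shares 13 bases with the first, gave -0.46 in wild-type and -0.56 in *Trp53*-/- cells against -0.47 and -0.56. For *Tuba1b* the dimmer of the 2 probes had -0.35 and -0.23 in *Trp53*-/- replicates 1 and 2, against 0.11 and -0.12 for the brighter probe. In wild-type cells the same probes had means of -0.35 and -0.46. The *Tuba1b* ratio in *Trp53*-/- cells thus rested on the probe, and that of wild-type cells was below 0 with either.

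RefSeq promoters (GRCm38.p6) were given for 8 of the 10 genes. Those of *Tuba8* and *Tubb2a*, both higher in untreated *Trp53*-/- cells, are shown for the 250 bases before the transcription start, with matches on either strand in capitals, the motifs searched being the TATA box TATAAA, the CCAAT box, the GC box GGGCGG and the half-site of p53. The *Tuba8* promoter is chr6:121210484-121210733 on the plus strand.
Tuba8 promoter: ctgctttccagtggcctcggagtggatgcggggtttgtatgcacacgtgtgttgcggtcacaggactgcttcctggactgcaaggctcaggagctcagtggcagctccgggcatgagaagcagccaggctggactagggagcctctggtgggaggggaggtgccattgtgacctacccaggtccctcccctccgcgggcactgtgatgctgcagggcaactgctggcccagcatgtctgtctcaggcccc
The *Tubb2a* promoter is chr13:34078009-34078258 on the minus strand.
Tubb2a promoter: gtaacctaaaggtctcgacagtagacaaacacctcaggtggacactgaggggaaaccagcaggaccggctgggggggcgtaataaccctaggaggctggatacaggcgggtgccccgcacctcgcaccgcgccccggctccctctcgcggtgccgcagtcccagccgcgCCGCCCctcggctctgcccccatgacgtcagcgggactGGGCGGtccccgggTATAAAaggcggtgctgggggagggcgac
None of the 4 motifs was found in these letters of the *Tuba8* promoter. The *Tubb2a* promoter holds TATAAA 29 bases before the start and GGGCGG at 43 and, on the other strand, at 81 bases. Of 32851 mouse promoters of this length, 12.4% hold TATAAA, 32.7% GGGCGG, 33.8% CCAAT and 7.1% a p53 half-site. A p53 half-site was found for 2 of the 8 genes, 200 bases before the start of *Tuba1c* and 158 before that of *Tubb3*. A match is a description of the letters and does not show binding.

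The 5 genes whose 4 log2 ratios lay nearest to those of *Tuba8*, by the root mean square difference over the 4 arrays, were *Cavin4* (0.257), *Nxph3* (0.317), *Pcp4l1* (0.351), *Cgref1* (0.359) and *Unc5b* (0.469). *Cavin4* encodes a coat protein of the caveolae of muscle, and its log2 ratios were -0.06 and -0.10 on the wild-type arrays and -1.97 and -1.52 on the *Trp53*-/- arrays; both of its channels were below the background limit in wild-type replicate 1. *Unc5b* is a receptor for the guidance cue netrin and *Nxph3* a ligand of neurexins. In untreated cells 4 of the 5 had a higher mean in *Trp53*-/- than in wild-type cells, *Cavin4* by 2.64, *Nxph3* by 1.97, *Unc5b* by 1.24 and *Pcp4l1* by 0.95. *Cgref1* differed by -0.10. These genes were chosen for their likeness, and the values are a description.

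Of 10 further tubulin genes, 9 had a probe above the filter. These are γ-, δ- and ε-tubulins of the centrosome and further α- and β-isotypes. In wild-type cells 2 of the 9 fell with PJ34 at q below 0.05, where 11.4% of all genes did. They were *Tubd1*, the δ-tubulin of centrioles, with -0.35 and -0.47 (q = 0.0435 in limma) and *Tubb4a* with -0.06 and -0.57 (q = 0.0472). In *Trp53*-/- cells 2 of the 9 fell, where 10.6% of all genes did, and neither count is a result about these 9 genes. The 2 were *Tubd1* with -0.40 and -1.16 (q = 0.00371) and *Tubb4b* with -0.43 and -0.51 (q = 0.0103). Both lost the call without *Trp53*-/- replicate 2 (q = 0.0850 and 0.110). In untreated cells *Tubd1* was 0.77 higher in *Trp53*-/- cells (q = 0.0356 in limma), where 3.68% of all genes were higher at q below 0.05. The mean change of *Tubd1* stayed under 2-fold in each comparison. The others did not pass. *Tubg1* and *Tubg2*, the γ-tubulins that nucleate microtubules, had means of -0.16 and 0.07 in wild-type and of 0.08 and 0.13 in *Trp53*-/- cells, and *Tube1* -0.16 and -0.09. *Tuba3a*, *Tuba3b* and *Tubb1* were dim, with their control signal well above background on 0, 1 and 2 of the 4 arrays. With median centring, the ratios of *Tubb4a* and *Tubb4b* were above 0 in both genotypes, and *Tubd1* was at 0.046 in wild-type and -0.097 in *Trp53*-/- cells. Relative to the median of all genes there, *Tubd1* stayed lower, by -0.42 in wild-type and -0.73 in *Trp53*-/- cells. On that scale *Tubb4a* was at -0.11 and 0.20 and *Tubb4b* at 0.26 and -0.04.

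Genes that fold, modify or bind tubulin passed the test in both directions, beside 13.7% of all genes that rose and 11.4% that fell in wild-type cells, so their counts are no result about these lists. Of 22 folding factors (the CCT chaperonin, prefoldins and tubulin cofactors), 2 rose and 3 fell in wild-type cells at q below 0.05, with a median log2 ratio of -0.01, against 0.03 over all genes and -0.44 over the 10 tubulin genes. *Tbcel*, a cofactor-like protein that destabilizes tubulin, had the largest change, with 0.81 and 0.62 (q = 4.38e-04 in limma). Of 20 measured enzymes of tubulin modification, 2 rose and 4 fell. *Atat1*, which acetylates α-tubulin, had 0.57 and 0.63 (q = 8.84e-04), and *Ttl*, which restores the tyrosine at the α-tubulin tail, had -0.44 and -0.42 (q = 0.00498). Of 30 genes of microtubule stability and severing, 4 rose and 5 fell. *Kif2c*, a kinesin that depolymerizes microtubules in mitosis, had -0.71 and -1.10 (q = 4.01e-04), and *Mapre3*, a protein that tracks growing plus ends, 0.72 and 0.54 (q = 9.76e-04). None of these genes was called at 2-fold in wild-type or *Trp53*-/- cells. The response of *Mapre3* was higher in wild-type than in *Trp53*-/- cells by 0.67 (q = 0.0339), as 1.31% of all genes were at q below 0.05; it kept that call only when wild-type replicate 2 was the array left out. Under median centring the median of all genes in wild-type was 0.46, so the values are given relative to it. *Tbcel*, *Atat1* and *Mapre3* were at 0.80, 0.67 and 0.78 and *Kif2c* at -0.86. The ratio of *Ttl* turned to 0.16, which is -0.30 relative to all genes.

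In *Trp53*-/- cells, 1 folding factor rose and 1 fell, and the same counts held for the modifying enzymes, where *Ttl* had -0.35 and -0.50 (q = 0.00607). Of the 30 genes of stability and severing, 1 rose and 7 fell, where 12.8% and 10.6% of all genes did. *Kif2c* had -0.36 and -0.62 (q = 0.00867), and *Mapt*, the tau protein of axons, -0.42 and -0.34 (q = 0.0161). With median centring *Kif2c*, *Ttl* and *Mapt* were at 0.17, 0.41 and 0.48, which is -0.47, -0.23 and -0.16 relative to all genes. In untreated cells, 2 genes of the 30 were called, both higher in *Trp53*-/- cells. *Stmn4*, a neuronal relative of stathmin, differed by 2.15 (wild-type levels of 9.30 and 10.02 against 11.76 and 11.87, q = 0.0146 in limma). *Mapt* differed by 1.94 (8.73 and 9.63 against 11.05 and 11.20, q = 0.0222). *Tpgs1*, a subunit of the tubulin polyglutamylase complex, was lower by -1.02 (q = 0.0233). No folding factor differed in untreated cells by limma, with 0 of 22 at q below 0.05 and 0 at an unadjusted p below 0.05. The median difference of the 22 was -0.0037, against 0.44 for the 10 tubulin genes, a description of the lists.

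**Figure D4:**
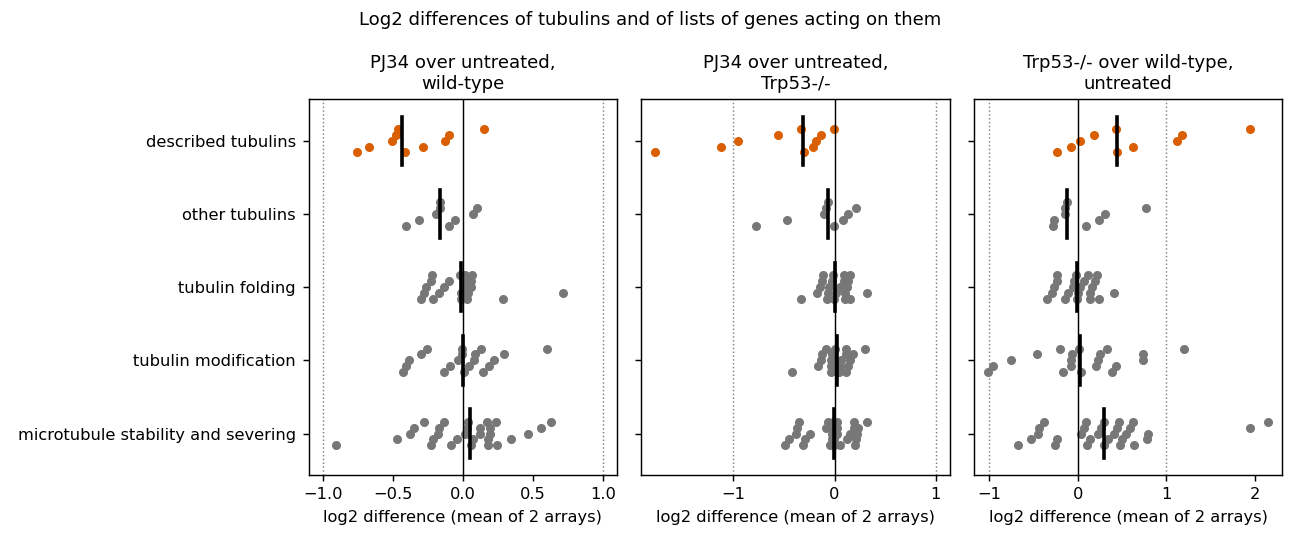
Log2 differences (x axes, mean of 2 arrays per genotype, dotted lines at 2-fold) of the 10 tubulin genes, 9 further tubulins and the 3 lists of 22, 20 and 30 genes; each point is a gene and the bar the median. The median of the 10 tubulin genes lies at -0.44 in wild-type, -0.31 in *Trp53*-/- and 0.44 in the untreated comparison; under median centring the medians with PJ34 are 0.34 and 0.65, where those of all genes are 0.46 and 0.64.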

How the data were processed

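Wild-type and *Trp53*-/- NSPCs were each measured on 2 arrays (Agilent SurePrint G3 Mouse GE), with PJ34 in Cy5 and untreated cells in Cy3. The authors deposited, per the file headers, spot and local background intensity from Agilent Feature Extraction 10.7.3.1, which were used here. The log10 ratio that the authors deposited comes from the same software, which corrects background and dyes; it was converted to log2 and used as an alternative. A further table holds 4 columns of normalized values, headed by numbers that match no array, and was left out.

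Background was corrected by normexp (limma 3.58.1, R 4.3.3, offset 50) and ratios normalized by loess; control and outlier spots (228 to 276 per array) had no weight. Levels were further scaled with Aquantile. Probes with at least 1 channel well above background on both arrays of a genotype were kept (27030 with a symbol), symbols coming through RefSeq accessions (GRCm38.p6) for 27235 probes (48.9%) and otherwise from the files. A gene was read from its brightest kept probe. limma was fitted over all genes and 4 arrays with 2 residual degrees of freedom (10.21 once moderated), with Storey's q; calls needed p and q below 0.05 and more than 2-fold. The number of arrays limits the precision. The fits were tested on simulated data.

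The members and lists were chosen with earlier results of these data known. Named genes were the 10 members, further tubulins, up to 4 genes per list and comparison with the largest change, and the 5 genes most like *Tuba8*; markers, *Trp53* and sex-linked genes served as checks. Alternatives are given in the closing section.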

Additional observations from a re-analysis of the deposited data

Results flagged for a closer look

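The response of *Mapre3* differed between the genotypes in limma's test of the difference itself. Its log2 ratios with PJ34 were 0.72 and 0.54 in wild-type and -0.14 and 0.05 in *Trp53*-/- cells, a difference of 0.67 with a standard error of 0.14 (q = 0.0339). It was the only gene of the 4 lists of tubulin-related genes outside the 10 described ones with q below 0.05 in that test, where 1.31% of all genes were higher in wild-type, and it stayed under 2-fold. Over the settings with all 4 arrays the difference was 0.67 to 0.71, and 0.45 with median centring. With 1 array left out it was 0.58 to 0.77, and q was above 0.05 without wild-type replicate 1 (0.0587), *Trp53*-/- replicate 1 (0.108) or *Trp53*-/- replicate 2 (0.0512), and 0.00986 without wild-type replicate 2.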

How the results depend on the processing

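The direction of the PJ34 ratios rested on the loess curve. With median centring, 7 of the 10 tubulin genes were higher and 0 lower in wild-type at q below 0.05, against 0 and 7 with loess, and their median was 0.34 against -0.44; the wild-type ratios turned to 0.35 for *Tuba1a*, 0.39 for *Tuba1b*, 0.25 for *Tuba4a*, 0.49 for *Tubb2a*, 0.68 for *Tubb2b*, 0.44 for *Tubb3*, 0.16 for *Tubb5*, 0.33 for *Tubb6*, 0.35 for *Tubb4a*, 0.72 for *Tubb4b*, 0.046 for *Tubd1*, 0.33 for *Tube1* and 0.49 for *Tubg1*. In *Trp53*-/- cells it gave 2 members called higher and 1 lower (0 and 2 with loess), a median of 0.65 (-0.31), and 0.84, 0.60 and 0.57 for *Tubb4a*, *Tubb4b* and *Tube1*; the median difference between genotypes was -0.21 (0.08). Over all genes it called 1161 higher and 2 lower in wild-type and 3371 and 4 in *Trp53*-/- cells, against 57 and 42, and 18 and 55. With the scanner software's ratios 3 members were lower in wild-type and 0 differed between genotypes, as was so with an offset of 16 (1 otherwise); over all genes the software's ratios called 380 higher and 178 lower, 384 and 144, and 0 and 0 between genotypes (87 and 7), and the offset of 16 called 102 and 60, 44 and 85, and 39 and 2, with 523 and 610 in untreated cells (373 and 385). The mean of kept probes gave an untreated median of 0.33 (0.44). The cause was not tested. When 1 array was left out, members at q below 0.05 in wild-type ranged from 0 to 1 higher and 3 to 7 lower, those called lower in *Trp53*-/- cells from 1 to 3, those called higher in untreated cells, *Tuba8* aside, from 0 to 2, those at q below 0.05 there from 0 to 5, and the untreated median from 0.34 to 0.50. Without *Trp53*-/- replicate 1, 59 genes were called higher and 104 lower in *Trp53*-/- cells, and without either *Trp53*-/- array 0 genes were called in untreated cells; the lone array was assumed to vary like the others. The *Tuba8* ratio in *Trp53*-/- cells ranged from -2.59 with the scanner software to -1.26 with median centring.

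Same-numbered arrays did not deviate together (correlation -0.179 for ratios and 0.082 for untreated levels). With 2 arrays per genotype, these correlations do not tell whether same-numbered arrays share a batch. With the replicate number as a block, 440 genes were called higher and 560 lower in untreated cells, and *Tubb3* passed with q = 0.0447; no other member's call changed. The crossed block, chosen after seeing the data, called 429 and 506. The *Tuba8* spot was dim in wild-type, so its untreated difference moved with the background correction (2.25 with none, 2.44 with an offset of 16, against 1.95), and 2 arrays per genotype limit the precision.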
